A study of Mus musculus with 18 samples.

Results

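Transcript levels of 10 genes of the interleukin-1 family, its receptors and its processing enzymes were examined in mouse embryonic fibroblasts (MEFs) with and without oncogenic RAS, which is known to drive primary fibroblasts into senescence. The 10 genes were chosen by name from the 55401 identifiers of the count table. They are the ligands Il1a, Il1b, Il33 and Il18, the antagonist Il1rn, the receptor chains Il1r1, Il1rap and Il1rl1, and the inflammatory caspases Casp1 and Casp4. All 10 were found, and each was matched through its identifier.

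MEFs are primary cells grown from minced embryos, here of C57BL/6 background and taken without head and viscera. Cells were transduced once with a retrovirus, either empty vector (EV) or one for constitutively active HRAS (RAS), and selected with puromycin. The S6K1 series compared wild-type (WT) cells with EV, the same WT lines with RAS, and S6K1 knockout (KO) lines with RAS. The S6K1/S6K2 series had the same WT arms beside double knockout (DKO) lines, lacking both kinases, with RAS. Each of the 6 groups had 3 libraries from different embryos, giving 18 libraries, and knockout cells with EV were not analysed here. S6K1 KO and WT embryos were littermates, whereas DKO and WT embryos came from separate matings, so loss of both kinases and the breeding line cannot be told apart.

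Interleukin-1α and interleukin-1β act through Il1r1, which needs the accessory chain Il1rap to signal to NF-κB, and the product of Il1rn occupies Il1r1 without signalling. Interleukin-33, a nuclear alarmin of Il33, acts through Il1rl1 (also called ST2), which pairs with the same accessory chain. Caspase-1 of the inflammasome cuts the precursors of interleukin-1β and interleukin-18, and the Casp4 gene of the mouse encodes caspase-11, the sensor of intracellular lipopolysaccharide. In senescent fibroblasts the interleukin-1 pathway is known as an upstream arm of the secretory phenotype, and Il1rl1 was first isolated from rodent fibroblasts as a gene switched on by serum and oncoproteins.

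Total counts were between 8319445 and 14402442 per library. Levels are CPM (counts scaled to the library total, with TMM factors within a series), given as mean ± SD with n = 3, and with so few libraries the SD is itself imprecise. The targeted gene of S6K1, Rps6kb1, had 69.0 ± 6.74 CPM in RAS cells of the WT and 30.6 ± 6.75 CPM in those of the KO. In DKO RAS it ranged from 34.5 to 39.7 CPM against 75.5 to 83.7 CPM in WT RAS, and Rps6kb2 went from 25.8 ± 2.68 to 2.84 ± 0.186 CPM. Hras, whose counts can include reads from the vector, was at 50.8 to 72.7 CPM in the EV libraries and 90.3 to 141 CPM in the RAS libraries. The 10 fibroblast markers were present in every group, with Col1a1 at 2041 CPM or more. All 20 macrophage markers were also detected, at a summed level of 75.3 to 4263 CPM, and this sum differed between groups and between embryos. In bulk RNA, fewer cells of a type and less RNA per cell cannot be told apart.

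The members lie on 5 chromosomes (RefSeq, GRCm38.p6). Il1r1 spans chromosome 1 from 40222480 to 40316201 on the plus strand and Il1rl1 spans 40404864 to 40465418 of the same strand. Chromosome 2 carries Il1rn from 24336860 to 24351491 on the plus strand, Il1a from 129299609 to 129310186 on the minus strand, and Il1b from 129364569 to 129371164 on the minus strand. Chromosome 9 carries Casp1 from 5298517 to 5307281, Casp4 from 5308849 to 5336791 and Il18 from 50554700 to 50581841, all on the plus strand. Casp1 ends 1567 bases before Casp4 begins. Il1rap lies on chromosome 16 from 26581509 to 26730128 and Il33 on chromosome 19 from 29925113 to 29960718, both on the plus strand.

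Promoter windows are printed for Il1rl1, Il33 and Il1rap, the ligand and both receptor chains of the interleukin-33 system, whose transcripts moved together, and for Il1a, a ligand at the limit of detection. Each window is of GRCm38.p6 and runs 5′ to 3′ on the strand of the gene, from 250 bases before a RefSeq transcript start to 50 bases after it. The Il1rl1 windows are chr1:40429320-40429619 and chr1:40439379-40439678, the Il33 windows chr19:29924863-29925162 and chr19:29945540-29945839, the Il1rap window chr16:26581455-26581754 (all plus strand) and the Il1a window chr2:129309923-129310222 (minus strand). Capitals mark matches to any of 4 motifs searched on both strands, which were AP-1 (TGANTCA), NF-κB (GGGA and TTCC with any 2 bases between), ETS (CCGGAAG) and the interferon-stimulated response element, ISRE (TTTC and TTTC with any 2 bases between).
Il1rl1, upstream start: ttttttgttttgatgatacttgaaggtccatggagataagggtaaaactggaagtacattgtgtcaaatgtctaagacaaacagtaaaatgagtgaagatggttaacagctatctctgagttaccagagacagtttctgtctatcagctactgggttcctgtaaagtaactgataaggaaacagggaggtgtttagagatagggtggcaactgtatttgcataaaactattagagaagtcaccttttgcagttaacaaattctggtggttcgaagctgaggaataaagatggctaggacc
Il1rl1, downstream start: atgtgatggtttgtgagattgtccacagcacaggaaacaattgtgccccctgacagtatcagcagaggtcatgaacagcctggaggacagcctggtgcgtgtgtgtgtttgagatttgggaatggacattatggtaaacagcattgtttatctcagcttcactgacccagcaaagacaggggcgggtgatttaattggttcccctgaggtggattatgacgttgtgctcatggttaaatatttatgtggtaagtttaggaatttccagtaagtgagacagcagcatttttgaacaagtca
Il33, upstream start: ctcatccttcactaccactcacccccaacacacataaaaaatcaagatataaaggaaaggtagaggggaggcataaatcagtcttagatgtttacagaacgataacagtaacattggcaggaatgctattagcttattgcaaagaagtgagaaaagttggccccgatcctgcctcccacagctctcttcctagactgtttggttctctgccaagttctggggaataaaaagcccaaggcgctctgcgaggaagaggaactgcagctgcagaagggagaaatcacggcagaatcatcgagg
Il33, downstream start: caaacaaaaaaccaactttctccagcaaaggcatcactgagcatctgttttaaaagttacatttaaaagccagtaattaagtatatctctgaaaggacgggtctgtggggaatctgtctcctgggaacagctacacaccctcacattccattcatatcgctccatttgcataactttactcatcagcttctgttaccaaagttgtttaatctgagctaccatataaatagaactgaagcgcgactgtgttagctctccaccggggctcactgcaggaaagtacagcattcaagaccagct
Il1rap: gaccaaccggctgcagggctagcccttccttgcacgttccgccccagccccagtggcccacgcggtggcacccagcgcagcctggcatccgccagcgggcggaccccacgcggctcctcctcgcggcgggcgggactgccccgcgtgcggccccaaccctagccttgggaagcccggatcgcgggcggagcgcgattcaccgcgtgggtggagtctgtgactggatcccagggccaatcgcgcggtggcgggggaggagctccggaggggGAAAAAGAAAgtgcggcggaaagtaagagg
Il1a: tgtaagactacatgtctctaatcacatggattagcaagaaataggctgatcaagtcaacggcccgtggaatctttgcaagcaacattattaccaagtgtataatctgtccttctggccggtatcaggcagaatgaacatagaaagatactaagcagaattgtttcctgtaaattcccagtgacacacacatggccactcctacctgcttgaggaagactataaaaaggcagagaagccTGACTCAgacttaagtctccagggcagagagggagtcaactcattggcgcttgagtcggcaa

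Of the 16 RefSeq windows of the 10 members, 2 held the AP-1 letters, and 7.81% of all 32851 windows did. In Il1a the match began 12 bases before the start, and the other was in the first window of Il1rn, beginning 141 bases before the start. The ISRE letters occurred in 1 window, that of Il1rap, from base 21 after the start and on the opposite strand (printed as GAAA and GAAA around 2 bases), against 3.44% of all windows. NF-κB and ETS letters were in none of the 16 and in 1.47% and 8.86% of all windows. Only the letters given above were searched, so other forms of these sites can have been missed. Both windows of Il1rl1 and both of Il33 held none of the 4 motifs, which says only that these letters are not in these bases.

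Per kilobase of exon, Il1rl1 had the highest level of the 10 members in all 6 groups, at 36.6 to 169 CPM per kilobase of group mean. In WT EV of the S6K1 series it was followed by Il1rn at 16.4, Il1r1 at 13.6, Il1rap at 4.19, Il18 at 3.26, Casp1 at 3.12, Casp4 at 2.84 and Il33 at 1.37 CPM per kilobase. Il1b and Il1a came last, at 0.0382 and 0.0361 CPM per kilobase. In WT RAS of the same series Il33 stood at 9.92 CPM per kilobase, above Il1rap at 8.95 and below Il1r1 at 11.5. Lengths are from an older annotation, and that of Il18 (702 bases) is short, so the order among neighbours is approximate.

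To ask which members respond to RAS, WT RAS was compared with WT EV in each series by edgeR over all genes. Il33 and Il1rap were called as higher with RAS in both series and Il1rl1 in the second. In the S6K1 series 2 of the 8 members that passed the filter on low counts had an adjusted p under 0.05, Il33 and Il1rap, both higher, where 13.2% of all 14036 tested genes were called. In the S6K1/S6K2 series 3 of 7 tested members were called, Il33, Il1rap and Il1rl1, all higher, where 26.3% of 13881 tested genes were called. The median log2 fold change of the tested members was 0.29 and 0.81, and that of all tested genes was 0.00 and −0.02.

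**Figure D1:**
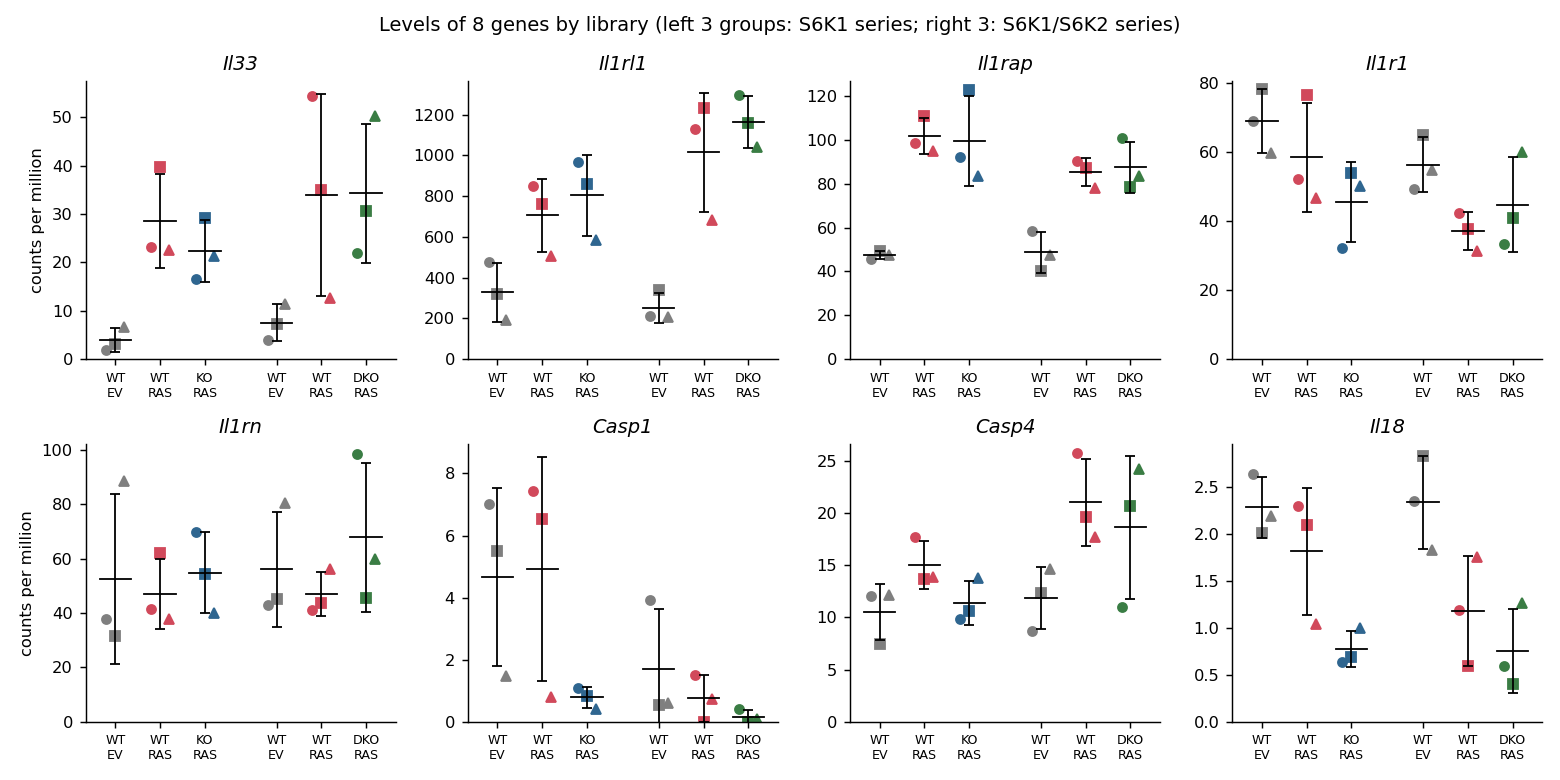
Levels of the 8 members with measurable counts, in CPM on linear axes from 0, for 18 libraries. Circles, squares and triangles are replicates 1, 2 and 3, and horizontal lines with bars are mean ± SD of 3 libraries (bars are cut at 0). Il33, Il1rl1 and Il1rap stand higher in RAS than in EV libraries in both series, and Casp1 is high in single WT libraries.

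Il33, the ligand, had 1.95, 3.13 and 6.69 CPM without RAS (WT EV, S6K1 series) and 23.2, 39.7 and 22.6 CPM with it (WT RAS). Each WT RAS library was above each EV library. The log2 fold change was 2.88 (SE 0.44, adjusted p 0.00289). The corresponding levels in the other series were 3.84, 7.16 and 11.5 CPM with EV and 54.4, 34.9 and 12.6 CPM with RAS. Again the groups did not overlap, but in the third WT line RAS exceeded EV by 1.10 times only, against 14.1 and 4.87 times in the first and second. The log2 fold change there was 2.18 (SE 0.55, adjusted p 0.0179), and the call was lost without WT RAS replicate 1 (log2 fold change 1.66, adjusted p 0.0559), WT RAS replicate 2 (2.16, 0.0523) or WT EV replicate 2 (2.15, 0.0602).

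Il1rl1, the receptor for interleukin-33, was at 479, 318 and 189 CPM with EV and at 849, 761 and 506 CPM with RAS in the WT lines of the S6K1 series. These groups did not overlap, but within each group replicate 1 was highest and replicate 3 lowest. The log2 fold change of 1.10 (SE 0.34) had an adjusted p of 0.0649, and with the replicate number as a block it was 1.16 (SE 0.12, adjusted p 6.91e-05). DESeq2 also called it (adjusted p 0.0119), as did edgeR without WT EV replicate 1 (1.46, 0.0274) or WT RAS replicate 3 (1.29, 0.0428). So did edgeR with no filter (adjusted p 0.00783) and over all 18 libraries (0.0316). With the block, 4 of the 8 members and 36.2% of all tested genes were called. The S6K1/S6K2 series gave 214, 338 and 204 CPM with EV and 1131, 1234 and 684 CPM with RAS, a rise of 2.01 on the log2 scale (SE 0.27, adjusted p 0.00100). The 3 WT lines gained 5.29, 3.65 and 3.35 times. Gene counts do not separate the transcripts for the soluble and the membrane-bound form of this receptor.

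Il1rap, the accessory chain shared by both receptors, was called in both series, and its replicates lay close together. Its libraries had 45.9, 49.3 and 47.6 CPM with EV against 98.9, 111 and 95.2 CPM with RAS in the S6K1 series, and the log2 fold change was 1.09 (SE 0.15, adjusted p 0.00181). In the other series they had 58.5, 40.2 and 47.3 CPM with EV against 90.3, 87.3 and 78.2 CPM with RAS (log2 fold change 0.81, SE 0.16, adjusted p 0.00569). The groups did not overlap in either series, and the gain was between 1.54 and 2.25 times in all 6 WT lines.

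To ask whether S6K loss changed these levels in RAS cells, KO or DKO RAS was compared with WT RAS. Without a block no member was called in either series in edgeR or in DESeq2. Of all tested genes, edgeR called 0.00712% and 0.0216%, and DESeq2 63 of 14036 and 10 of 13881. With the replicate block, which pairs KO and WT RAS libraries of the S6K1 series, 1 of 8 members was called there, Casp1 (lower, adjusted p 0.00121), where 4.15% of all tested genes were called. At an unadjusted p under 0.05 there were 2 members in the S6K1 series, Casp1 and Il18, and 0 in the other. Il33 had 16.6, 29.2 and 21.2 CPM in KO RAS and 22.0, 30.6 and 50.2 CPM in DKO RAS. Both sets overlapped their WT RAS groups, and the 95% intervals of the log2 fold change ran from −1.24 to 0.54 and from −1.13 to 1.16. Il1rl1 had 967, 861 and 583 CPM in KO RAS and 1297, 1160 and 1040 CPM in DKO RAS, with intervals from −0.57 to 0.94 and from −0.38 to 0.77. Il1rap had 92.0, 123 and 83.7 CPM in KO RAS and 101, 78.6 and 83.5 CPM in DKO RAS, with intervals from −0.36 to 0.30 and from −0.31 to 0.39. For Il1rap, losses of more than 0.36 on the log2 scale therefore lay outside the interval in both series, whereas for Il33 a change of more than 2 times stayed within it.

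**Figure D2:**
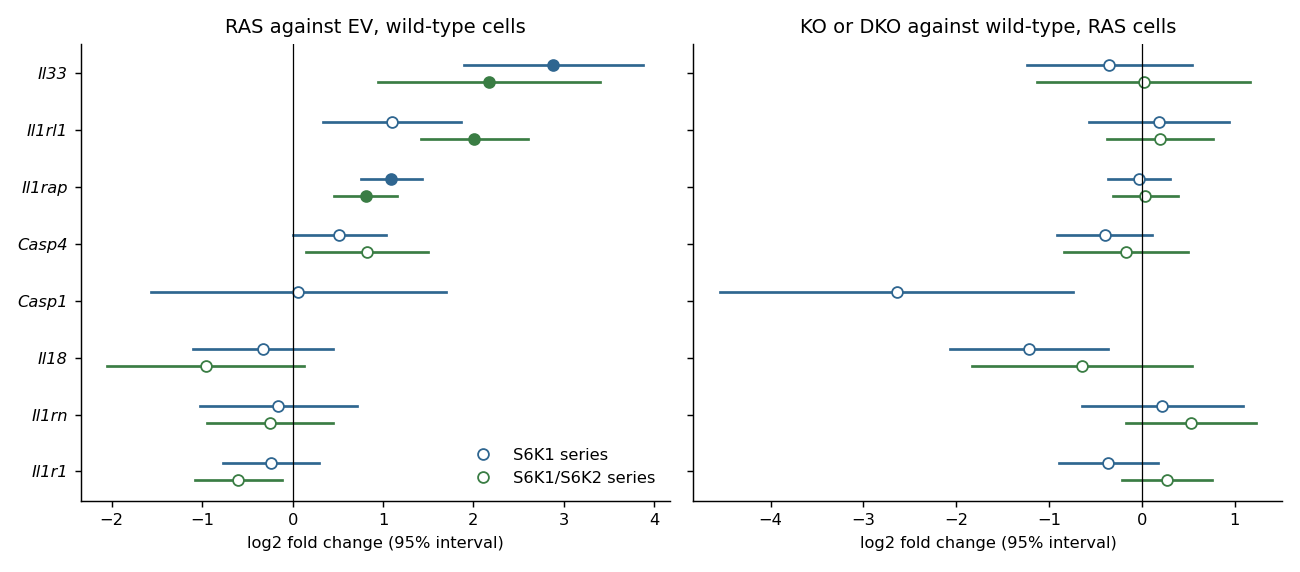
Log2 fold changes (points) with 95% intervals (lines) of the tested members from edgeR, for RAS against EV in WT cells (left) and for KO or DKO against WT in RAS cells (right). Filled points have an adjusted p under 0.05. Filled points occur in the left panel only, for Il33 and Il1rap in both series and Il1rl1 in the S6K1/S6K2 series, and Casp1 was tested in the S6K1 series only.

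Compared with WT EV, the knockout RAS cells also held more of all 3 transcripts. KO RAS against WT EV gave log2 fold changes of 2.53 for Il33 (SE 0.44, adjusted p 0.00439), 1.29 for Il1rl1 (SE 0.34, 0.0298) and 1.06 for Il1rap (SE 0.15, 0.00164), and DKO RAS against WT EV gave 2.19 (SE 0.55, 0.0174), 2.21 (SE 0.27, 0.000596) and 0.85 (SE 0.16, 0.00449). Of the tested members, 4 of 8 and 4 of 7 were called in these comparisons, the fourth being Il18 (lower), where 18.1% and 25.7% of all tested genes were called. These comparisons share their EV libraries with those of RAS in WT cells, so they are not separate evidence of the RAS response. The Il1rl1 call in the S6K1 series was lost on leaving out KO RAS replicate 1 or 2 or WT EV replicate 2 or 3 (adjusted p 0.0608 to 0.0985), and the Il33 call in the other series without WT EV replicate 2 or DKO RAS replicate 3 (0.0593 and 0.0523).

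Il1r1 and Il1rl1 belong to a run of 6 receptor genes that spans 467 kilobases of chromosome 1, and these neighbours did not move as 1 unit. Il18rap, the accessory chain of the interleukin-18 receptor, went from 9.88, 11.7 and 7.60 CPM with EV to 26.1, 29.0 and 24.9 CPM with RAS in WT cells of the S6K1 series, by 1.45 on the log2 scale (SE 0.18, adjusted p 0.00106). In the other series its mean went from 4.63 ± 2.65 up to 20.3 ± 1.25 CPM (2.13 on the log2 scale, SE 0.39, adjusted p 0.00401). Il18r1, the ligand-binding chain, lies between Il1rl1 and Il18rap and held 0 to 7 counts in any library. Il1rl2, the receptor for interleukin-36, fell by 0.99 on the log2 scale in the S6K1 series (from 31.1 ± 10.2 to 15.7 ± 4.13 CPM, SE 0.28, adjusted p 0.0448), and it had 12.6 ± 3.35 and 7.08 ± 2.48 CPM in the other series. Il1r2, the decoy receptor, held 0 to 10 counts in any library.

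**Figure D3:**
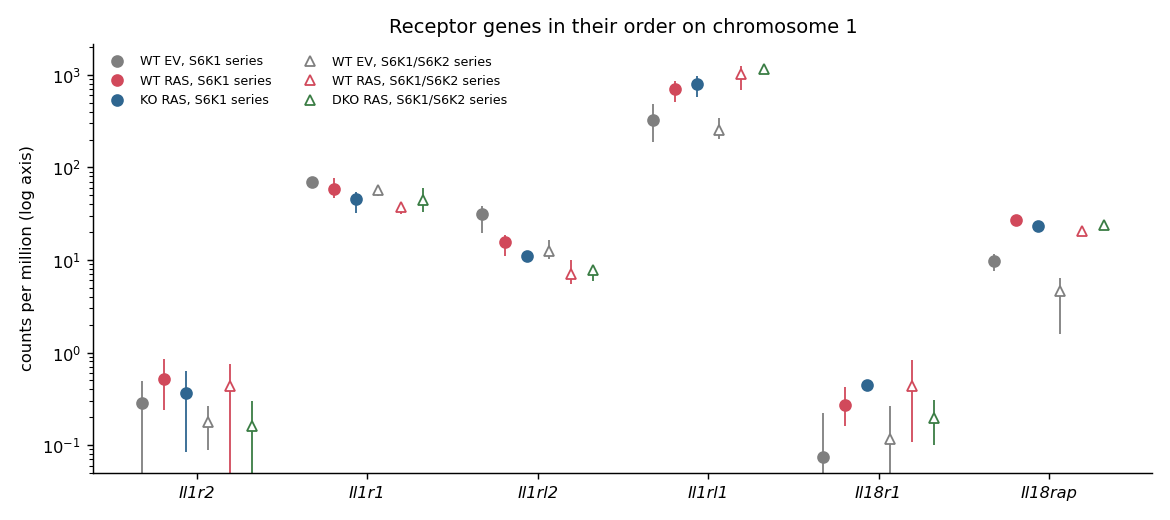
Group means (points) and lowest to highest library (lines) in CPM on a log axis for 6 receptor genes in chromosomal order. Il1rl1 and Il18rap are higher in the RAS groups, Il1r1 and Il1rl2 are not, and Il1r2 and Il18r1 lie under 1 CPM (lines reaching 0 are cut at the axis).

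Il1r1, the signalling receptor for interleukin-1, had its highest levels in WT EV. In the S6K1 series its levels were 68.8, 78.2 and 59.8 CPM for WT EV, 52.2, 76.4 and 46.6 CPM for WT RAS and 32.2, 53.9 and 50.2 CPM for KO RAS. WT EV overlapped WT RAS, and no KO RAS library reached the lowest EV library. The log2 difference of KO RAS from WT EV was −0.60 (SE 0.24, adjusted p 0.116), which was −0.61 with the replicate block (SE 0.15, adjusted p 0.00983, where 6 of 8 members and 41.1% of all tested genes were called). The S6K1/S6K2 series had 49.2, 65.0 and 54.9 CPM of Il1r1 with EV, 42.4, 37.8 and 31.3 CPM in WT with RAS and 33.2, 41.0 and 59.9 CPM in DKO with RAS. WT RAS did not overlap EV there, with a log2 fold change of −0.60 (SE 0.22) and an adjusted p of 0.0654 in edgeR and 0.0494 in DESeq2. It was also called by edgeR with no filter (adjusted p 0.0219) and with only the groups compared in the fit (0.0422). With the replicate block it was not called (adjusted p 0.0857).

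Il1rn, the antagonist, showed no ordering by group. The WT EV libraries had 37.7, 31.4 and 88.4 CPM and those of the other series 42.9, 45.0 and 80.5 CPM, with the third library the highest in both. WT RAS had 41.4, 61.9 and 37.7 CPM and 41.1, 43.7 and 56.3 CPM, KO RAS 69.8, 54.3 and 40.2 CPM, and DKO RAS 98.4, 45.5 and 59.7 CPM. All groups of a series overlapped. The RAS log2 fold change was −0.16 (95% interval −1.03 to 0.71) and −0.25 (−0.95 to 0.44), and its sign turned without the third EV library (0.44 and 0.11).

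Il1a and Il1b were near zero, and raw counts are given for them. Il1a, the cell-associated ligand, had 2, 1 and 0 counts with EV in the S6K1 series, against 12, 24 and 6 for WT RAS and 1, 6 and 2 for KO RAS. Each WT RAS library was above each EV library, and KO RAS touched the lowest WT RAS count. From 3 to 42 summed counts, the rate per read rose 15.1 times with RAS (exact 95% interval 4.83 to 76.2), and from 42 to 9 counts the KO RAS rate was 0.211 times that of WT RAS (0.0903 to 0.439). WT RAS replicate 2 alone moved these to 9.84 and 0.324 times when left out, WT EV replicate 1 moved the first to 28.6 times, and KO RAS replicate 2 moved the second to 0.111 times. The counts of the other series were 0, 0 and 1 for WT EV, 8, 1 and 2 for WT RAS and 2, 0 and 0 for DKO RAS. The ratios were 12.6 (1.83 to 542) for RAS against EV and 0.165 (0.0178 to 0.757) for DKO against WT, and without WT RAS replicate 1 they were 5.12 (0.411 to 269) and 0.407 (0.0340 to 3.55). Leaving out WT EV replicate 1 gave 8.31 for the first, and leaving out DKO RAS replicate 3 gave 0.252 (0.0271 to 1.15) for the second. These intervals cover counting error only and say nothing of the spread between embryos, for which an exact permutation test of 3 against 3 libraries cannot go below p = 0.1.

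Il1b, the secreted ligand, had 1, 2 and 0 counts with EV in the S6K1 series, against 7, 61 and 3 for WT RAS and 3, 18 and 3 for KO RAS. WT RAS replicate 2 alone held 85.9% of the 71 counts of its group (exact 95% interval 75.6 to 93.0), and replicate 2 was also the highest of the KO RAS libraries. The KO RAS rate was 0.333 times that of WT RAS (0.200 to 0.535) with all libraries and 1.55 times (0.716 to 3.64) without WT RAS replicate 2. Without KO RAS replicate 2 it was 0.131 times (0.0467 to 0.301). RAS against EV gave 25.5 times (8.39 to 127), 5.47 times (1.41 to 30.9) without WT RAS replicate 2 and 49.8 times without WT EV replicate 2. The other series had no count of Il1b in 3 WT EV libraries, 4, 0 and 3 for WT RAS and 0, 1 and 1 for DKO RAS. Set against a floor of 3 counts over the EV group, the 7 WT RAS counts gave 2.67 times (1.76 times when WT EV replicate 1 was left out). The exact 95% interval for counting error began at 1.65 times, and at 1.09 times without WT EV replicate 1. When WT RAS replicate 1 was left out, both groups were at or under the floor. DKO against WT gave a ratio of 0.260 (0.0263 to 1.36), which was 0.407 without WT RAS replicate 1 and 0.395 without DKO RAS replicate 1. The difference between DKO and WT was not detectable at this depth.

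**Figure D4:**
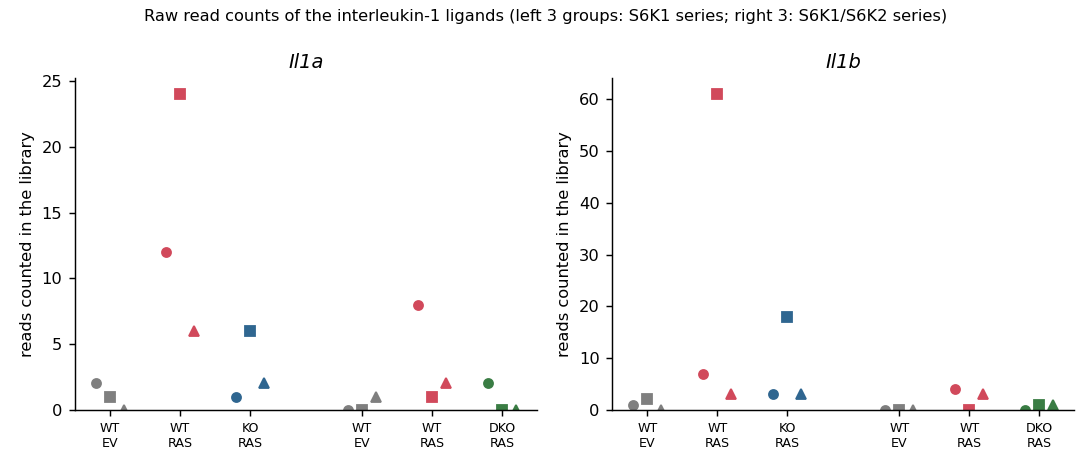
Raw read counts of Il1a (left) and Il1b (right) in each of the 18 libraries on linear axes, with circles, squares and triangles for replicates 1, 2 and 3. Il1a does not exceed 24 counts and Il1b exceeds 18 in 1 library, WT RAS replicate 2 of the S6K1 series, with 61.

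Neither ligand passed the filter on low counts in either series. Without that filter, RAS against EV in the S6K1 series called both (Il1a adjusted p 0.00440, Il1b 0.00862), among 5 of 10 members and 7.40% of all genes tested in that way. The same fit gave adjusted p-values of 0.109 and 0.0915 for RAS against EV in the other series. For KO against WT RAS it gave 0.280 for Il1a and 0.890 for Il1b, and for DKO against WT RAS 1 for both. Macrophages are a known source of interleukin-1β, and WT RAS replicates 1, 2 and 3 of the S6K1 series had 4263, 3739 and 823 CPM of summed macrophage markers beside 7, 61 and 3 counts of Il1b. WT EV replicates 1, 2 and 3 of that series had marker sums of 3929, 3050 and 801 CPM beside 1, 2 and 0 counts. KO RAS replicates 1, 2 and 3 had 993, 750 and 275 CPM beside 3, 18 and 3 counts. Summed interferon-response genes of WT RAS replicates 1, 2 and 3 were at 2827, 3169 and 600.3 CPM. The part of macrophages or of interferon in these counts was not tested.

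Casp1 was carried by a few WT libraries and was not ordered by RAS. In the S6K1 series WT EV had 101, 74 and 16 counts (7.03, 5.51 and 1.47 CPM), WT RAS 87, 84 and 10 (7.43, 6.54 and 0.803 CPM) and KO RAS 12, 11 and 5 (1.09, 0.843 and 0.417 CPM). Replicates 1 and 2 of both WT groups stood apart from replicate 3, and KO RAS replicates 1 and 2 exceeded WT RAS replicate 3. The log2 difference of KO from WT RAS was −2.64 (SE 0.84, adjusted p 0.587), which with the replicate block was −2.56 (SE 0.32, adjusted p 0.00121). KO RAS against WT EV gave −2.58 (SE 0.84, adjusted p 0.0647 in edgeR, 0.000194 with the block, 0.00843 in DESeq2 and 0.0373 when WT EV replicate 3 was left out). It was also called by edgeR with no filter (0.00856) and with only the groups compared (0.0317). Casp1 failed the filter in the other series, where WT EV had 45, 6 and 7 counts, WT RAS 14, 0 and 8 and DKO RAS 4, 0 and 1. From 22 to 5 summed counts, the DKO rate was 0.206 times that of WT RAS (0.0611 to 0.559), 0.381 times (0.0982 to 1.32) without WT RAS replicate 1 and 0.0629 times (0.00152 to 0.389) without DKO RAS replicate 1.

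The macrophage marker sum moved with Casp1. Its range was 801 to 3929 CPM for WT EV, 823 to 4263 CPM for WT RAS and 275 to 993 CPM for KO RAS in the S6K1 series, and from 190 to 1701, 187 to 1134 and 75.3 to 272 CPM in WT EV, WT RAS and DKO RAS of the other. All 20 markers had counts in 17 of 18 libraries, and 18 of 20 in DKO RAS replicate 3. Csf1r, the receptor for macrophage colony-stimulating factor, was at 33.2 to 148 CPM for WT RAS and 8.92 to 36.1 CPM for KO RAS. With loss of S6K1 all 20 markers had negative log2 fold changes (median −2.27), all with an unadjusted p under 0.05. Of them, 0 were called in edgeR, 1 in DESeq2 and 19 with the replicate block, beside 1, 63 and 583 of 14036 genes. In DKO against WT RAS all 19 tested markers were lower (median −1.95), 2 with an unadjusted p under 0.05, and edgeR called 0. The 5 libraries with 3.93 CPM of Casp1 or more were the 5 with the highest marker sums. The part of macrophages in the Casp1 difference was not tested.

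**Figure D5:**
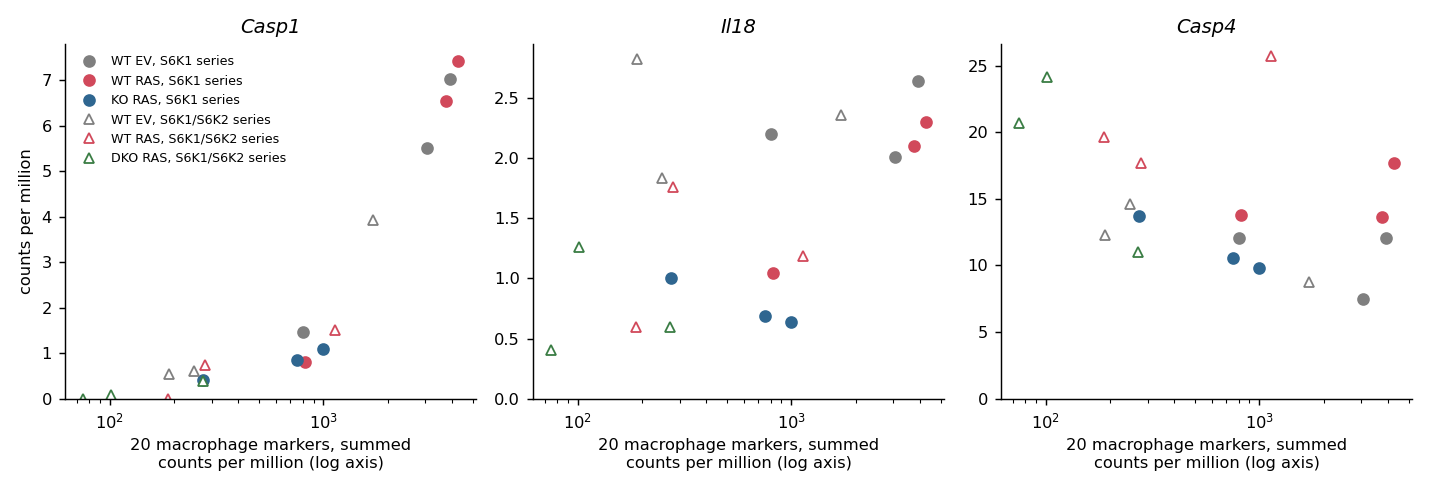
Levels of Casp1, Il18 and Casp4 (CPM, linear axes) against the summed CPM of 20 macrophage markers (log axis) in the 18 libraries, coloured by group, with filled circles for the S6K1 series and open triangles for the S6K1/S6K2 series. Casp1 reaches 3.93 CPM or more only where the marker sum is 1701 CPM or more, and Casp4 shows no such order. The highest Il18 level, 2.83 CPM, stands at a marker sum of 190 CPM.

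Il18, the ligand activated by caspase-1, was lowest in the knockout groups. In the S6K1 series WT EV had 38, 27 and 24 counts (2.64, 2.01 and 2.20 CPM), WT RAS 27, 27 and 13 (2.31, 2.10 and 1.04 CPM) and KO RAS 7, 9 and 12 (0.637, 0.690 and 1.00 CPM). No KO RAS library reached the lowest of either WT group, the nearest being 1.00 against 1.04 CPM. KO RAS against WT EV was called (log2 fold change −1.55, SE 0.37, adjusted p 0.0208) and KO RAS against WT RAS was not (−1.22, SE 0.38, adjusted p 0.587, and 0.124 with the block). The counts of the other series were 27, 32 and 21 for WT EV, 11, 5 and 19 for WT RAS and 6, 4 and 14 for DKO RAS, and the RAS groups overlapped. DKO RAS against WT EV was called (log2 fold change −1.60, SE 0.51, adjusted p 0.0433), DKO against WT RAS was −0.64 (SE 0.53), and WT RAS against WT EV was −0.96 (SE 0.49, adjusted p 0.172). The first call was lost without WT EV replicate 1 or KO RAS replicate 1 or 2 (adjusted p 0.0638 to 0.0845), and the second without replicate 1 or 2 of either group (0.0720 to 0.151) or with only the groups compared in the fit (0.0529). Macrophages express Il18 in many tissues, and the marker sums given for Casp1 were lowest in the knockout group of each series. By library the order differed. WT EV replicate 2 of the S6K1/S6K2 series had the highest Il18 (2.83 CPM) at a marker sum of 190 CPM. KO RAS replicates 1 and 3 had 0.637 and 1.00 CPM at sums of 993 and 275 CPM. The libraries with the highest sums, WT RAS and WT EV replicate 1 of the S6K1 series (4263 and 3929 CPM), had 2.31 and 2.64 CPM. The part of macrophages in Il18 was not tested.

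Casp4 did not pass the test with RAS in the edgeR fit used for the calls, although every WT RAS library lay above every EV library of its series. The S6K1 series had 12.04, 7.45 and 12.1 CPM with EV against 17.7, 13.6 and 13.8 CPM in WT cells with RAS (log2 fold change 0.51, SE 0.23, adjusted p 0.188, and 0.0405 with the block). KO RAS had 9.82, 10.6 and 13.7 CPM and overlapped WT RAS (log2 fold change −0.40, SE 0.23, adjusted p 0.921). For the S6K1/S6K2 series the levels were 8.73, 12.3 and 14.6 CPM with EV, 25.7, 19.6 and 17.7 CPM for WT RAS and 11, 20.7 and 24.2 CPM for DKO RAS. The RAS log2 fold change of 0.82 (SE 0.30) had an adjusted p of 0.0706 in edgeR, 0.0348 in DESeq2 and 0.0480 when WT EV replicate 3 was left out, and DKO against WT was −0.17 (SE 0.30). The RAS change was also called by edgeR with no filter (0.0255), over all 18 libraries (0.0377) and with only the groups compared (0.0481). With the replicate block it was not called (adjusted p 0.0623). Casp4 responds to interferon in many cells. The CPM of 25 interferon-response genes summed to 798 to 1372 with EV, 600 to 3169 for WT RAS and 296 to 1183 for KO RAS, and in the other series to 817 to 1388, 260 to 1140 and 208 to 302 for EV, WT RAS and DKO RAS. Their part in the Casp4 levels was not tested.

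To ask whether the series differed, the RAS effect and the loss effect were compared between them over all 18 libraries. No member was called for either difference in edgeR, in DESeq2 or with the replicate block. Of all 14483 tested genes, edgeR called 0% and 0.00690%, DESeq2 145 and 1, and the block 58 and 1. At an unadjusted p under 0.05 edgeR gave 0 members, and for the RAS difference DESeq2 and the block each gave 1, Il1rl1 (adjusted p 0.361 and 0.0986). The largest RAS difference by unadjusted p was that of Il1rl1, 0.90 on the log2 scale higher in the S6K1/S6K2 series (95% interval −0.07 to 1.87). Each series was an experiment of its own, and a batch effect between them cannot be told apart from the series.

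Of 45 other genes of the interleukin-1 pathway, 44 were matched, of which 33 and 29 passed the filter. With RAS, 5 of 33 were called in the S6K1 series (1 higher, 4 lower), beside 13.2% of all tested genes, and 6 of 29 in the S6K1/S6K2 series (3 higher, 3 lower), beside 26.3%. These shares are near the background and are no result about the list. Single libraries mattered in the first, where 1 to 3 were called on leaving out any 1 of the 6 libraries. Those fits called 1043 to 1818 of all tested genes. Beside the receptors, the genes called in both were Peli2, a ubiquitin ligase of the receptor complex (log2 fold changes −0.94 and −0.97), and Irak3, an inhibitory kinase homologue (−0.61 and −0.94), both lower. Nek7, an NLRP3 partner, was lower in the S6K1 series (−0.46). Myd88, the adaptor of the signalling interleukin-1 receptors, was lower (−1.12) in the S6K1/S6K2 series. Irak2, a kinase of the same complex, and Ninj1, a mediator of membrane rupture, were higher there (0.87 and 0.60). The remaining ligands of the family were nearly silent, with no more than 4 counts of Il36g and 3 of Il1f10 in any library and none of Il36a or Il36b.

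Among 24 genes known to respond to interleukin-1 or NF-κB, 7 of the 20 tested were called with RAS in the S6K1 series (6 higher), beside 13.2% of all tested genes, and 10 of the 19 tested in the other (8 higher), beside 26.3%. This list was chosen with earlier results of these data known, so its share is no test against that background. Mmp3, a matrix protease, rose from 85.9 ± 28.8 to 1590 ± 650 CPM (log2 fold change 4.21) and from 68.5 ± 4.34 to 1078 ± 363 CPM (3.98). Ptges, the prostaglandin E synthase, rose by log2 fold changes of 3.37 and 2.51, Ccl2, a monocyte chemokine, by 2.22 and 1.96, Lif, a cytokine of the interleukin-6 family, by 1.99 and 3.22, and Ptgs2, the inducible cyclooxygenase, by 1.68 and 4.04. Cxcl5, a neutrophil chemokine, fell in the S6K1 series (−1.39), and Cxcl1, another of that class, and Vcam1, an adhesion molecule, fell in the other (−2.08 and −1.24).

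With loss of S6K1 or of both kinases, none of the other pathway genes or targets was called in edgeR without the block or in DESeq2. Of all tested genes, edgeR called 1 and 3, and DESeq2 63 and 10. At an unadjusted p under 0.05 there were 5 of 33 and 0 of 29 pathway genes, and 3 of 20 and 0 of 19 targets, in edgeR, beside 963 of 14036 and 179 of 13881 of all tested genes. With the replicate block in the S6K1 series, where 4.15% of all tested genes were called, 3 of 33 pathway genes and 2 of 20 targets were called, all lower in KO RAS. The 3 pathway genes were all of the inflammasome. These were Nlrp3, a sensor (log2 fold change −1.93, adjusted p 0.000561), Pycard, its adaptor (−1.77, 0.00192), and Gsdmd, the pore-forming substrate of the caspases (−1.06, 0.00918). The 2 targets were Cxcl2, a neutrophil chemokine (−1.86, 0.00520), and Vcam1 (−0.70, 0.0441). The macrophage marker sum was 823 to 4263 CPM for WT RAS and 275 to 993 CPM for KO RAS, and its part in these differences was not tested.

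Genes with the most similar pattern to each member were found by Pearson's r of centred log2 CPM over 18 libraries among 12956 genes, as a description. Il1rap was most like Mmp1a (r = 0.974), Stc1 (0.970) and Nefl (0.968). For Il1rl1 these were Capg (0.966), Eif2b3 (0.964) and Ereg (0.962), and for Il33 they were Btc (0.955), Ptges (0.945) and Klhl3 (0.941). Il1rap correlated with Il33 at r = 0.854 and with Il1rl1 at 0.821, and Il33 with Il1rl1 at 0.735. All of these points share the step between EV and RAS libraries. Il1r1 was most like Cxcl1 (0.903), Il18 most like H2-DMb1 (0.926), a chaperone of antigen presentation, and Casp4 most like Bcl3 (0.878). Il1rn reached no more than 0.712, with 1600012H06Rik. Il18 correlated with Casp1 at r = 0.744, and Casp1 with Casp4 at −0.273 although they are neighbours.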

How the data were processed

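RNA of 18 MEF libraries was sequenced (poly(A)-selected, stranded, single-end). The authors deposited raw read counts per Ensembl gene for 55401 identifiers. Per the labels the submitters' notes name CASAVA, STAR 2.7.1a, DESeq2 1.28.1 and mm10, whereas the study's methods name TopHat, mm9 and HTSeq, so the aligner and build behind these counts are not settled, and multi-mapped reads may have been treated either way. The count table held 25336 identifiers with no count, and 32589 had a symbol (99.1% of counts).

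Groups followed the sample titles. Members, pathway lists and marker lists were chosen with earlier results of these data known. Members were named in every comparison, and other genes by the size of their change among those called, up to 4 in each direction, in either series. Genes passing filterByExpr (minimum count 10) were tested per series over 9 libraries by edgeR 4.0.16 in R 4.3.3 (TMM, quasi-likelihood, two-sided, Benjamini-Hochberg over all genes, threshold 0.05), and differences between series over 18. SE is the log2 fold change over the root of F. All adjusted p-values are from edgeR unless DESeq2 1.42.0 is named. Alternatives were DESeq2, other scalings, other filters, other sets of libraries, the replicate block and leaving out each library. Exact intervals, correlations and figures were made in Python 3.11.15 with scipy 1.17.1, pandas 2.3.3 and matplotlib 3.10.9. Positions and promoters are RefSeq GRCm38.p6, matched by symbol, and exon lengths are of an NCBIM37 annotation.

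EV and RAS libraries of one number are the same WT line. Deviations from group means correlated between same-numbered libraries at r = 0.444 to 0.684 (RAS against EV) and 0.393 to 0.692 (KO against WT RAS) in the S6K1 series, and at 0.293 to 0.366 with RAS in WT lines of the S6K1/S6K2 series, so the number pairs libraries in these comparisons. For DKO against WT RAS they were −0.0351 to 0.454, a range that takes in the values for RAS in those WT lines. That the number pairs nothing here rests on the separate matings of DKO and WT embryos, not on these correlations. The closest of 18 replicate pairs differed by 7.98 chi-square units per degree of freedom, so no library was a duplicate. The script was tested on simulated counts for RAS against EV in the S6K1 series. Of 100 changes of log2 size 1, edgeR recovered 41 and DESeq2 61. Of 100 changes of log2 size 2 they recovered 86 and 88. False calls numbered 8 in edgeR and 35 in DESeq2. The simulated spreads were edgeR's own estimates and held no pairing of lines, so these numbers do not measure false calls in the real data. Calls made by DESeq2 alone are still read with caution.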

Additional observations from a re-analysis of the deposited data

How the results depend on the processing

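Direction and side of the threshold held for 842 recomputed log2 fold changes of members, whereas 39 changed sign, 23 gained a call and 17 lost one. None of the calls reversed. Members called for RAS against EV in the S6K1 series numbered 5 of 10 with no filter and 4 of 8 with the replicate block. Of all tested genes, 7.4% and 36.2% were called there. Leaving out single libraries gave 2 to 5 members, beside 1043 to 1818 of all tested genes. KO against WT RAS gave 1 of 8 with the replicate block, Casp1, beside 4.15% of all tested genes. KO RAS against WT EV gave 2 to 4 on leaving out single libraries (2 without KO RAS replicate 1 or 2). DKO RAS against WT EV gave 2 to 4 (2 without WT EV replicate 2). Those fits called 1325 to 2139 and 1999 to 4044 of all tested genes. RAS against EV of the S6K1/S6K2 series gave 5 of 7 in DESeq2 and with only the groups compared. With no filter it gave 5 of 10. Of all tested genes, those fits called 4134 of 13881, 2732 of 13548 and 3906 of 27277. The fits with no filter also tested Il1a and Il1b, and in the S6K1/S6K2 series Casp1. The cause of the shifts in these counts was not tested.

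The replicate block moved the Il33 log2 fold change of DKO against WT RAS to −0.058, where the numbers pair no embryos. It changed no other call than those given for Il1rl1, Casp4, Casp1 and Il1r1. The remaining changes of sign came from leaving out single libraries, and all were of values with no call. For Il1rn the log2 fold change ran from −0.41 to 0.44 and from −0.42 to 0.11 with RAS in the S6K1 and S6K1/S6K2 series, from −0.0014 to 0.46 for KO against WT RAS, from −0.20 to 0.66 and −0.090 to 0.64 for the knockouts against WT EV, and from −0.70 to 0.24 and −0.045 to 0.56 for the differences between series in RAS and loss effect. For Casp1 it ran from −0.35 to 0.56 with RAS in the S6K1 series and, between series, from −2.12 to 0.32 (RAS effect) and −1.06 to 1.42 (loss effect). For KO against WT RAS, Il1rap ran from −0.21 to 0.081 and Il1rl1 from −0.0015 to 0.37. For DKO against WT RAS, Il1r1 ran from −0.0016 to 0.44, Il1rap from −0.073 to 0.11, Il1rl1 from −0.021 to 0.36, Il33 from −0.38 to 0.54 and Casp4 from −0.41 to 0.10. The Casp4 log2 fold change of KO RAS against WT EV ran from −0.088 to 0.22, and the differences in loss effect from −0.027 to 0.28 for Il1rap and −0.17 to 0.25 for Il1rl1.

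Other pathway genes called with RAS in the S6K1 series numbered 5 of 33, and 11 of 33 with the replicate block. Of all tested genes, 13.2% and 36.2% were called there. The counts of 5 and 11 are near these shares and are no result about the list. With only the groups compared 1 was called, beside 1486 of 13687 tested genes. Leaving out single libraries gave 1 to 3, beside 1043 to 1818 of all tested genes. Counts of 3 are equivalent to 0.208 to 0.361 CPM, which limits Il1a, Il1b and, in the S6K1/S6K2 series, Casp1.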
